A study of Mus musculus with 4 samples.

Results

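Interleukin-1 (IL-1) family ligands and receptors were read in 4 mouse oral cancer cell lines by mRNA sequencing. The 10 genes were chosen by name and are 10 of the 34721 entries of the expression table: the ligands Il1a, Il1b, Il18 and Il33, the antagonist Il1rn, and the receptor genes Il1r1, Il1r2, Il1rap, Il1rl1 and Il1rl2. All 4 lines came from tumors of C57BL/6 mice whose buccal mucosa had been painted with the carcinogen DMBA, and there were no untreated mice or normal oral cells in the comparison. AOC3 and AOC11 were grown from the primary oral tumors of 2 mice, and AOC3-LN and AOC11-LN from the cervical lymph node metastases of the same mice. Each line had been passed once under the skin of a C57BL/6 mouse and freed of fibroblasts with a separation kit, and the RNA was taken from cultured cells with 1 library per line. Levels are FPKM, fragment numbers scaled to the length of a transcript and the depth of its library, so they can be set side by side between genes, and gene positions are those of GENCODE M21 on mm10. Each mouse gave 1 pair of lines, so no value below has a replicate of its line, and a difference between the mice is a difference between 2 animals.

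IL-1α and IL-1β bind the same receptor, IL1R1, which signals only after it joins the accessory protein IL1RAP, and the complex acts through MYD88 and IRAK kinases on NF-κB. IL1RN occupies IL1R1 without signaling, and IL1R2 is a decoy that binds ligand and has no signaling domain. IL1RAP also serves the IL-33 receptor IL1RL1 and the IL-36 receptor IL1RL2. Keratinocytes hold IL-1α as an active precursor that is let out upon damage, whereas IL-1β and IL-18 are typically cut by an inflammasome caspase before they are active.

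Il1a and Il1b lie close together on the minus strand of chromosome 2 and had the highest and one of the lowest levels among the 4 ligand genes, so the 250 bases before their RefSeq starts are shown (GRCm38.p6, chr2:129309973-129310222 for Il1a and chr2:129371140-129371389 for Il1b, both on the minus strand, 5′ to 3′). Capitals mark matches to a TATA box, TATAAA, and to an AP-1 motif, TGANTCA, each searched on both strands.
Il1a: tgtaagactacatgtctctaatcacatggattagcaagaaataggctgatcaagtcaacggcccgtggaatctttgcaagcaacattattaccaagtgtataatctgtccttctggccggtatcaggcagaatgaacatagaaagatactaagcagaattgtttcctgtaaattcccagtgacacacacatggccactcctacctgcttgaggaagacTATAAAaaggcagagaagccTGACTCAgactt
Il1b: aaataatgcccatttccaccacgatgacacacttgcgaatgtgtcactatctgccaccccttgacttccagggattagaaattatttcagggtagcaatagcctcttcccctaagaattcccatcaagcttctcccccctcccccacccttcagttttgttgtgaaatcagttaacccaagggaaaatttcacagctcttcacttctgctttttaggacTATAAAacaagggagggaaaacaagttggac
The TATAAA began 32 bases before the start of Il1a and 31 bases before that of Il1b. TGACTCA stood 12 bases before the start of Il1a, and the Il1b window held no TGANTCA. A motif of the NF-κB core type, GGANNTTCC, matched neither window. Of 32851 upstream windows of the same length, 12.4% held TATAAA, 6.75% TGANTCA and 3.59% GGANNTTCC. All 10 genes had RefSeq windows, 15 in all. TATAAA or its reverse was also found in windows of Il18, Il33 and Il1rl2, TGANTCA in 1 of Il1rn, and GGANNTTCC in windows of Il1r2 and Il1rl2. These matches describe the letters only.

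The cells carried epithelial transcripts. All 8 epithelial markers reached 1 FPKM in at least 1 line, and their summed level was between 3186 and 3729 FPKM. Single markers did not share 1 order of lines. Krt5 was at 499 FPKM in AOC3 and 275 in AOC3-LN, against 4.99 in AOC11 and 17 in AOC11-LN. Trp63 was also lower in the AOC11 lines, at 1.69 and 2.1 against 0.0848 and 0.841. Krt14 was higher there, at 166 and 150 against 257 and 259, as was Cldn4, at 225 and 235 against 450 and 365. Epcam, Cdh1, Krt8 and Krt18 were at 144 FPKM or more in every line. Of 8 macrophage markers, Csf1r, Cd68 and Cd14 reached 1 FPKM and Adgre1 was listed at 0 in all lines, with sums from 16.8 FPKM in AOC11-LN to 33.8 in AOC11. Csf1r was at 0.995 FPKM in AOC3 and 0.435 in AOC3-LN, against 20.8 in AOC11 and 6.01 in AOC11-LN. Cd68 and Cd14 were higher in the AOC3 lines, at 13 and 8.79 against 6.15 and 4.45, and at 7.31 and 8.55 against 6.83 and 6.27. Of the neutrophil list only Ly6g and S100a8 reached 1 FPKM, with Elane and Retnlg at 0 and sums from 1.38 to 2.91. Flt3 alone of 6 dendritic cell markers reached it, with sums from 0.805 to 1.37 and Cd209a at 0, and Trac alone of 6 T cell markers, with sums from 0.965 to 2.13 and Cd3e, Cd4, Cd8a and Cd2 at 0. None of 6 mast cell, 6 fibroblast and 6 endothelial markers did, with highest sums of 0.0422, 1.05 and 0.481 FPKM, and Mcpt4, Tpsb2 and Emcn were at 0. The libraries were estimated at 29000000 to 34000000 fragments from the step between low FPKM values.

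Il1a was the most abundant of the 10 transcripts in every line. It was at 173 FPKM in AOC3 and 136 in AOC3-LN, against 69.1 in AOC11 and 11.3 in AOC11-LN. On its single transcript of 1974 bases these levels correspond to up to about 11000, 7100, 4200 and 670 fragments. Both AOC3 lines were above both AOC11 lines, and AOC11-LN stood well below the other lines. Among the entries at 1 FPKM or more in the same line, Il1a exceeded 95.5% in AOC3 and 94% in AOC3-LN, but 86.9% in AOC11 and 47.1% in AOC11-LN. The primary lines differed 2.51-fold between the mice and the lymph node lines 12-fold. In bulk RNA, fewer cells that express a gene and less RNA per cell cannot be told apart. Il1a (ENSMUSG00000027399.1, chr2:129299610-129309972) shares 222 exon bases with the antisense gene Gm14023, which was at no more than 0.21 FPKM in any line, and reads of this pair cannot be told apart without strand.

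The other ligands were low. Il1b, whose product is typically cut by a caspase, was at 0.238 FPKM in AOC3 and 0.218 in AOC3-LN, against 0.0757 in AOC11 and 0.11 in AOC11-LN. These levels correspond to at most about 9.7 fragments in a library, so their order was not resolved at this depth. Il33, a nuclear cytokine of barrier epithelium and the ligand of IL1RL1, was at 0.0499, 0.0148 and 0.0125 FPKM in AOC3, AOC3-LN and AOC11 and listed at 0 in AOC11-LN, where 3 fragments on its longest transcript would be 0.038 FPKM. Both genes stayed under 1 FPKM in all lines (Il1b ENSMUSG00000027398.13, chr2:129364570-129371139, and Il33 ENSMUSG00000024810.16, chr19:29925114-29960718).

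Il18 followed a different order of lines. It was at 1.35 FPKM in AOC3 and 0.0646 in AOC3-LN, against 0.306 in AOC11 and 3.89 in AOC11-LN, from up to about 33, 1.4, 7.3 and 93 fragments. AOC11-LN, the line with the lowest Il1a, had the highest Il18, and in AOC3-LN Il18 was near the limit of detection. The lines of the mice overlapped. Il1a made up 99.1%, 99.8% and 99.4% of the summed FPKM of the 4 ligands in AOC3, AOC3-LN and AOC11 and 73.8% in AOC11-LN. Il18 (ENSMUSG00000039217.13) lies at chr9:50554827-50581840 on the plus strand.

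Il1rn varied less than Il1a. The antagonist was at 1.42 FPKM in AOC3 and 1.62 in AOC3-LN, against 2.02 in AOC11 and 0.997 in AOC11-LN, and the lines of the mice overlapped (ENSMUSG00000026981.15, chr2:24336853-24351494). Per FPKM of Il1rn there were 122 of Il1a in AOC3 and 83.8 in AOC3-LN, against 34.2 in AOC11 and 11.3 in AOC11-LN. The ratio thus fell in the same order of lines as Il1a itself.

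Il1rap had the highest level of the 5 receptor genes in every line, in AOC11-LN by a small margin over Il1r1. It was at 5.4 FPKM in AOC3 and 5.45 in AOC3-LN, against 2.16 in AOC11 and 1.38 in AOC11-LN, from up to about 800, 680, 320 and 200 fragments. Both AOC3 lines were above both AOC11 lines, by 2.5-fold between the primary lines and 3.94-fold between the lymph node lines. It shares 353 exon bases with the antisense gene Gm20319, whose level was 1.81, 2.06, 0.807 and 0.486 FPKM in the same order, and with the default, unstranded setting of the counting, reads of the pair cannot be told apart (Il1rap ENSMUSG00000022514.14, chr16:26581704-26730117).

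Il1r1, the signaling receptor for both IL-1 cytokines, was low and ordered differently from Il1rap. Its level was 0.686 FPKM in AOC3 and 0.136 in AOC3-LN, against 0.667 in AOC11 and 1.28 in AOC11-LN. AOC3-LN was the lowest line and AOC11-LN the highest, 9.45-fold apart, while the primary lines were close. Per FPKM of Il1r1 there were 253 and 998 of Il1a in AOC3 and AOC3-LN, and 104 and 8.8 in AOC11 and AOC11-LN. Per FPKM of Il1r1, Il1rap was at 7.87, 40.1, 3.24 and 1.08. AOC11-LN was therefore the line in which ligand, accessory protein and signaling receptor transcripts came closest to each other.

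The decoy and the other ligand-binding chains stayed under 1 FPKM in all lines. Il1r2 was at 0.0333 to 0.0393 FPKM, about 1.4 fragments in each library. Il1rl1, the IL-33 receptor, was at 0.15 FPKM in AOC3 and 0.202 in AOC3-LN, against 0.484 in AOC11 and 0.376 in AOC11-LN, from up to about 26 to 85 fragments. Both AOC11 lines were above both AOC3 lines. The main fits left Il1rl1 out because it stayed under 1 FPKM, and a limma fit over all entries called none of the 10 members between the mice. Il1rl2, the IL-36 receptor, was listed at 0 in AOC3 and AOC3-LN, where 3 fragments would be 0.023 and 0.028 FPKM, and was at 0.0571 in AOC11 and 0.0082 in AOC11-LN. The 4 ligand-binding genes lie in 1 cluster on the plus strand of chromosome 1, in the order Il1r2 (ENSMUSG00000026073.13, chr1:40074079-40125231), Il1r1 (ENSMUSG00000026072.12, chr1:40225080-40317257), Il1rl2 (ENSMUSG00000070942.8, chr1:40324610-40367562) and Il1rl1 (ENSMUSG00000026069.15, chr1:40429570-40465415), followed by Il18r1 and Il18rap.

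**Figure D1:**
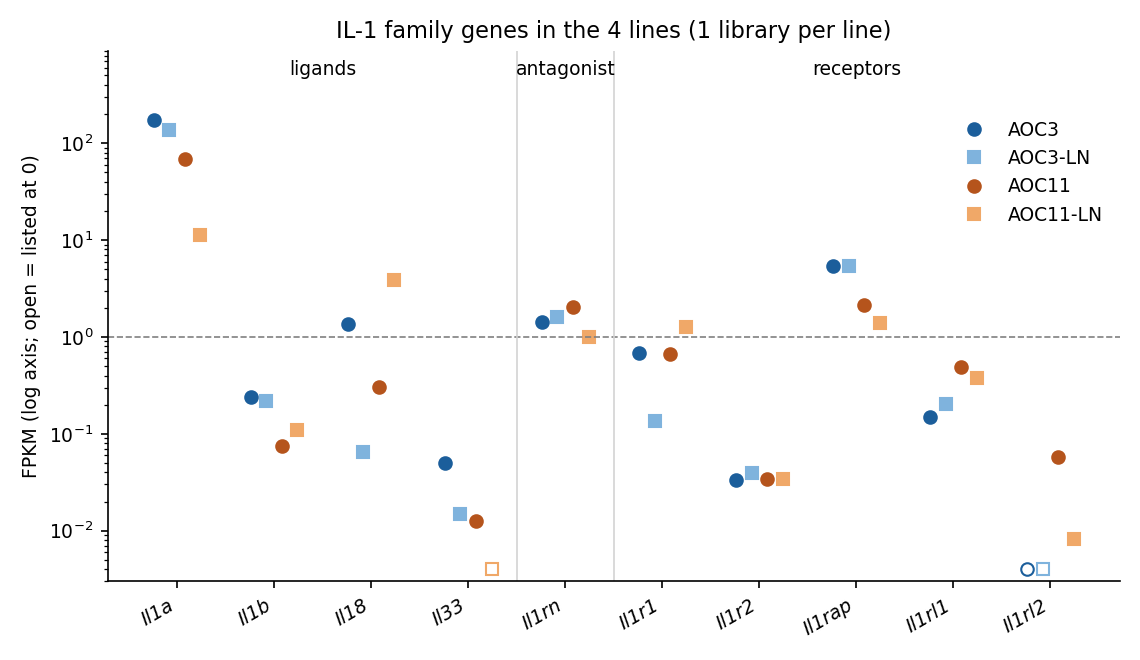
FPKM of the 10 IL-1 family genes on a log axis, with 1 point for each of the 4 lines, which is 1 library (circles, primary lines, squares, lymph node lines, open symbols, listed at 0), and a dashed line at 1 FPKM. Il1a spans 173 to 11.3 FPKM at the top, while Il1b, Il33, Il1r2, Il1rl1 and Il1rl2 lie under the dashed line in all lines.

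To compare the lines across all genes, FPKM values plus 1 were log2-transformed and quantile-normalised, and 14165 entries that reached 1 FPKM in at least 1 line were kept. Il1a, Il18, Il1rn, Il1r1 and Il1rap passed this filter. The mean of the AOC3 lines exceeded that of the AOC11 lines by more than 1 log2 unit for Il1a and Il1rap, and no gene of the 5 was lower by as much. A difference past 1 in either direction was found for 11.1% of all genes tested. Il1a differed by 2.46 (SE 0.82, limma with Benjamini-Hochberg adjustment over all genes, adjusted p = 0.225) and Il1rap by 1.32 (SE 0.32, limma adjusted p = 0.151). Il1a differed by 1.38 between the primary lines and by 3.53 between the lymph node lines, and Il1rap by 0.93 and 1.71. Without AOC11-LN the log2 difference of Il1a was 1.19 and without AOC11 it was 3.74, so its size rests on which line of that mouse is counted.

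The other members differed by less between the mice. Il18 gave a log2 difference of -0.68 (SE 0.69, limma adjusted p = 0.624), Il1rn 0.10 (SE 0.38, limma adjusted p = 0.9) and Il1r1 -0.47 (SE 0.32, limma adjusted p = 0.467). With a pseudocount of 0.1 FPKM, which weighs low levels more, Il18 was at -1.43 and Il1r1 at -1.21. Both lines of a mouse lay above both lines of the other for Il1a, Il1rap and Il1r1, which was the case for 53.1% of all genes. For Il1r1 this held only on the normalised scale, since its FPKM in AOC3 was above that in AOC11. At an unadjusted p under 0.05 limma gave 2 of the 5 members, Il1a and Il1rap, beside 2643 of the 14165 genes tested. None of the 5 members passed limma at an adjusted p under 0.05, against 29 of all genes, or 0.205%. That number was 4 without AOC3-LN and 0 without AOC3, AOC11 or AOC11-LN.

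Each lymph node line was then set against the primary line of its mouse, with 1 library on each side and so no test. Il1a had a log2 difference of -2.53 between AOC11-LN and AOC11, 6.12-fold lower in FPKM, and its difference between AOC3-LN and AOC3 was -0.38. Il18 was the 1 member past the threshold in both mice. Its log2 difference was -1.08 between AOC3-LN and AOC3 and 1.71 between AOC11-LN and AOC11, the latter 12.7-fold in FPKM. Past the threshold were thus 1 of the 5 members in AOC3-LN against AOC3, where 5.53% of all genes were, and 2 of 5 in AOC11-LN against AOC11, where 8.11% were.

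Against the primary line of the same mouse, Il1rn differed by 0.26 log2 units in AOC3-LN and by -0.84 in AOC11-LN. For Il1rap these were 0.11 and -0.67, and for Il1r1 -0.51 and 0.14. With a pseudocount of 0.1 FPKM the difference of Il1r1 in AOC3-LN was -1.54, and those of Il1rn and Il1rap in AOC11-LN were -1.38 and -1.02. Of the 5 members, Il18, Il1rn, Il1r1 and Il1rap had opposite signs in the mice, as did 51.9% of all genes. With both lymph node lines set against both primary lines, limma called none of the members (0 also at an unadjusted p under 0.05) and 2 of all genes, or 0.0141%, which became 0 when any 1 line was left out. The log2 difference of Il1a in that fit was -1.45 (SE 1.24, limma adjusted p = 1).

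**Figure D2:**
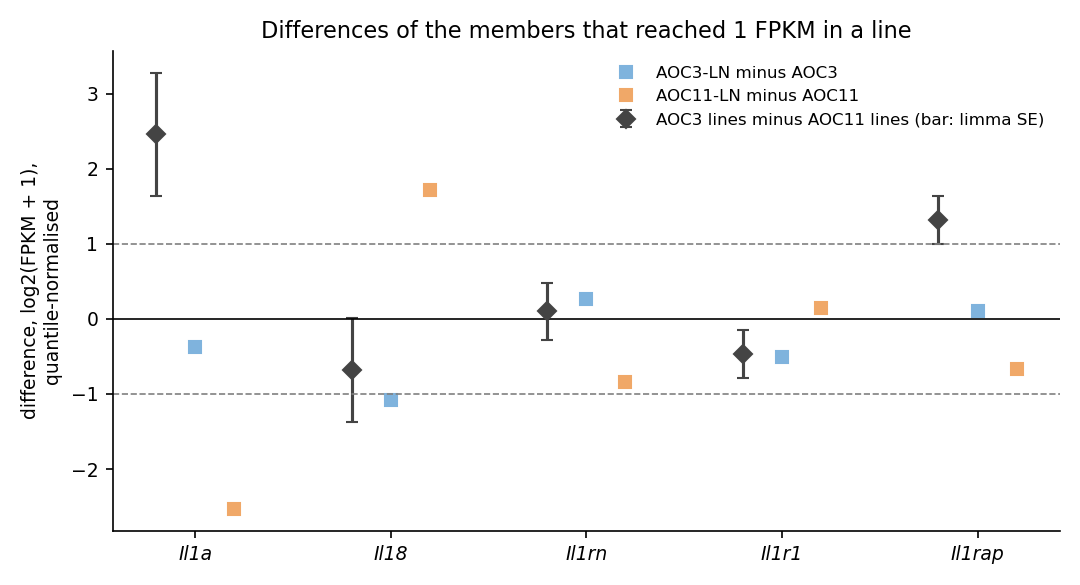
Log2 differences of the 5 members that reached 1 FPKM in a line, with diamonds for the AOC3 lines minus the AOC11 lines (bars, limma standard error) and squares for each lymph node line minus its primary line (1 library on each side, no error). Il1a at 2.46 and Il1rap at 1.32 lie above the dashed line at 1, and the squares of Il18 lie on opposite sides of 0.

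Other groups of the pathway were read in the same way, in lists chosen with earlier results of these data known. Of 11 remaining family genes, 4 were tested. The IL-18 receptor chains were both lower in the AOC3 lines. Il18r1, the ligand-binding chain, was at 1.33 FPKM in AOC3 and 0.187 in AOC3-LN, against 22.4 in AOC11 and 9 in AOC11-LN, and its log2 difference was -3.17 (SE 0.53, limma adjusted p = 0.101). Il18rap, its accessory chain, was at 0.418, 0.112, 1.57 and 3.35 FPKM, a difference of -1.40 (SE 0.32, limma adjusted p = 0.146). Il18r1 was also lower in AOC11-LN than in AOC11, with a difference of -1.23. AOC3-LN was the lowest line for Il18 and for both receptor chains.

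Sigirr, an inhibitory receptor of the family, was at 27.1 FPKM in AOC3 and 20.6 in AOC3-LN, against 13.9 in AOC11 and 32.8 in AOC11-LN, and was higher in AOC11-LN than in AOC11 by 1.20 log2 units. In each line its level was at least 20.8 times that of Il1r1. Il18bp, which binds free IL-18, was at 0.566, 0.553, 0.605 and 1.25 FPKM and shares 80 exon bases with Numa1, a gene at 50.7 to 71 FPKM. The IL-36 ligand genes Il1f6 and Il1f9 were under 1 FPKM, and Il1f8 was listed at 0, in all lines. The median log2 difference of the 4 tested genes between the mice was -0.82, beside 0.01 for all genes.

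Of 22 genes for processing and release, 10 were tested. The share of all genes past the threshold was 11.1% between the mice, 5.53% in AOC3-LN against AOC3 and 8.11% in AOC11-LN against AOC11. Aim2, a sensor of cytosolic DNA, was the 1 of the 10 past it in each of these comparisons. It was at 10.3 FPKM in AOC3 and 0.616 in AOC3-LN, against 0.197 in AOC11 and 3.1 in AOC11-LN, and its log2 differences were -2.71 for AOC3-LN against AOC3 and 1.59 for AOC11-LN against AOC11. These are the directions seen for Il18 in the same pairs of lines. Its difference between the mice was 1.02 (SE 1.02, limma adjusted p = 0.619), with overlapping lines. Casp1, which cuts IL-1β and IL-18, was at 0.156, 0, 0.563 and 0.713 FPKM, and its adaptor Pycard did not exceed 0.172. The calpain genes Capn1 and Capn2, whose products cut IL-1α, were at 18.3 to 56.8 and 48.6 to 98.3 FPKM.

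**Figure D3:**
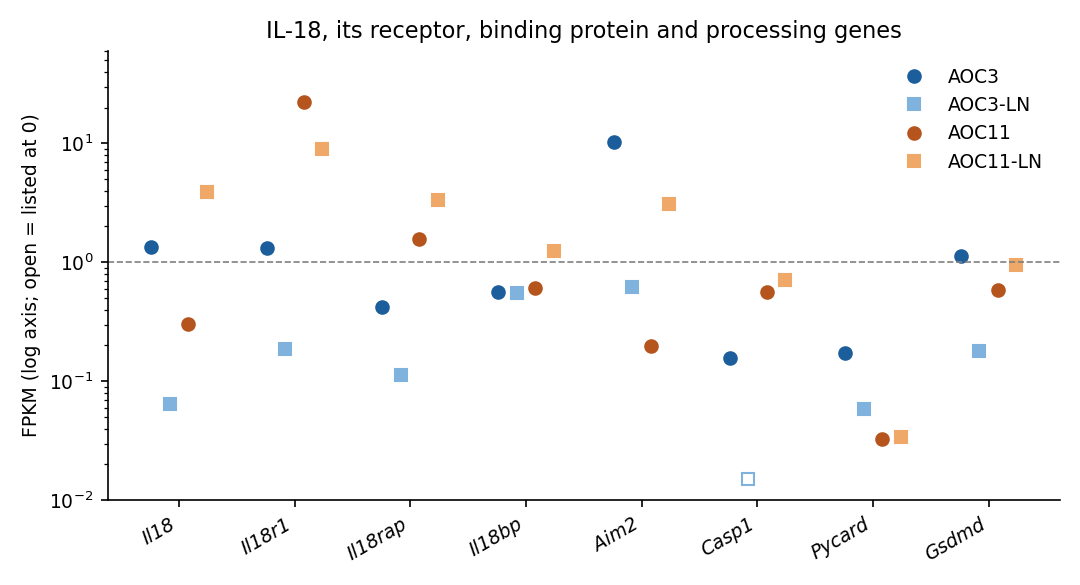
FPKM of Il18, its receptor chains, its binding protein and inflammasome genes on a log axis, 1 library per line (circles, primary, squares, lymph node, open, listed at 0). AOC3-LN is lowest for Il18 at 0.0646 FPKM, Il18r1 at 0.187 and Il18rap at 0.112, and Aim2 is at 10.3 FPKM in AOC3 and 0.197 in AOC11.

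Of 21 signal transduction genes 19 were tested. Between the mice 3 of the 19 were past the threshold, all lower in the AOC3 lines, beside 11.1% of all genes in either direction. These 3 were the NF-κB subunit genes Relb, Nfkb1 and Nfkb2, of 5 subunits in the list. Relb was at 7.27 FPKM in AOC3 and 5.32 in AOC3-LN, against 22.1 in AOC11 and 21.7 in AOC11-LN, and its log2 difference was -1.59 (SE 0.21, limma adjusted p = 0.0799). Nfkb1 differed by -1.33 (SE 0.37, limma adjusted p = 0.181) and Nfkb2 by -1.05 (SE 0.16, limma adjusted p = 0.0943). The other subunits, Rela and Rel, differed by -0.43 (SE 0.21, limma adjusted p = 0.348) and 0.00 (SE 0.40, limma adjusted p = 0.998). No gene of the list was past the threshold within a mouse, and its median difference between the mice was 0.00. The adaptor Myd88 was at 8.47 to 10.9 FPKM.

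Genes that IL-1 and NF-κB are known to induce were read last, and 23 of 28 were tested. Between the mice, 2 were higher and 6 lower in the AOC3 lines, beside 11.1% of all genes past the threshold in either direction, with a median difference of 0.05. Among those with both lines of a mouse apart from the other, the neutrophil chemokine gene Cxcl5 differed by -2.49 (SE 0.96, limma adjusted p = 0.266), the inhibitor gene Nfkbie by -2.09 (SE 0.68, adjusted p = 0.218), the adhesion gene Icam1 by -1.48 (SE 0.47, adjusted p = 0.214) and the chemokine gene Cxcl2 by -1.25 (SE 0.31, adjusted p = 0.158). Tnfaip2, a TNF-induced gene, was past the threshold with lines apart in the other direction, by 1.24 (SE 0.20, limma adjusted p = 0.0974), and is named after its values were seen. No gene of the list passed limma.

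Within the mice, more of these genes were lower than higher in the lymph node lines. In AOC3-LN 12 of the 23 genes were lower by more than 1 log2 unit and 2 higher, beside 5.53% of all genes past the threshold in either direction, with a median of -1.20 beside 0.02 for all genes. In AOC11-LN 11 were lower and none higher, beside 8.11% of all genes, with a median of -0.90 beside -0.02. The list was chosen with earlier results of these data known, so these counts describe the listed genes only. Nos2, for inducible nitric oxide synthase, had a log2 difference of -3.86 between AOC3-LN, at 0.551 FPKM, and AOC3, at 22.3. Lcn2, for a siderophore-binding lipocalin, had one of -3.80, from 65.1 FPKM in AOC3 to 3.5 in the lymph node line. Lcn2 was also lower in AOC11-LN than in AOC11, with a difference of -1.60. Ptgs2, for cyclooxygenase-2, went in opposite directions, with 4.91 FPKM in AOC3 and 53.2 in AOC3-LN, against 52 in AOC11 and 4.95 in AOC11-LN, and was chosen for mention after its values were seen. Il1a itself was lower past the threshold in AOC11-LN alone, and its difference in AOC3-LN was -0.38. Whether the list and Il1a were linked was not tested.

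**Figure D4:**
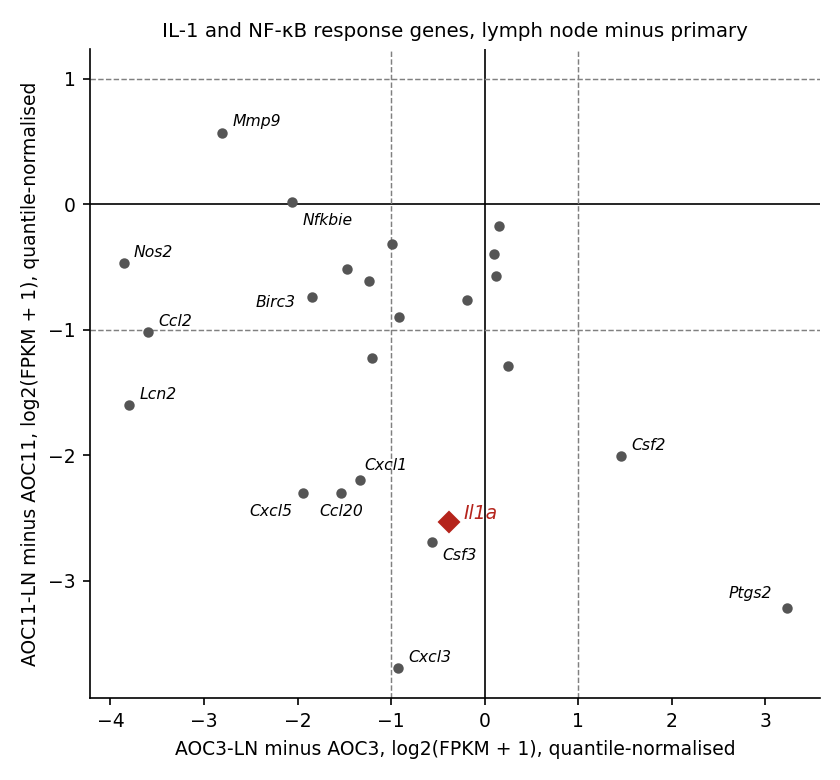
Log2 differences of the 23 tested response genes (grey) and of Il1a (red), AOC3-LN minus AOC3 on the horizontal and AOC11-LN minus AOC11 on the vertical axis, 1 library on each side, with dashed lines at 1 and -1. Most points lie below and left of 0, Lcn2 at -3.80 and -1.60 is low in both, and Ptgs2 lies at the lower right.

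Genes with a similar course over the 4 lines were sought for the members that spanned more than 1 log2 unit, by the Euclidean distance of log2 values centred on the mean of each gene. Over 4 points many genes can lie close, so the distances are a description. Il1a, which spanned 3.91 log2 units, was nearest to Pmaip1 (distance 0.83), Abcc4 (0.98) and Hspb8 (1.04). The match was loose, since each of these was higher in AOC3-LN than in AOC3, where Il1a was lower. Pmaip1, a pro-apoptotic BCL2 family gene, was at 52.1 FPKM in AOC3 and 78.6 in AOC3-LN, against 29.3 in AOC11 and 6.81 in AOC11-LN. Il18, which spanned 2.07, was nearest to Kank3 (0.14), Cdkn2b (0.18) and Dbp (0.19), of which the cyclin-dependent kinase inhibitor gene Cdkn2b was at 55.4, 28.6, 33.4 and 112 FPKM. Il1rap, which spanned 1.71, was nearest to Hspb1 (0.06), Rbks (0.07) and Socs3 (0.14). The small heat shock protein gene Hspb1 was at 701, 744, 386 and 256 FPKM. Il1a and Il1rap shared none of their nearest genes. The distance is not scaled for range, and they spanned 3.91 and 1.71 log2 units, so this says nothing about how alike they are.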

How the data were processed

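RNA of the 4 lines was prepared with a stranded mRNA kit and sequenced as paired reads. The authors used Trim Galore for trimming and TopHat2 for mapping to mm10, and deposited FPKM values that Cufflinks estimated on GENCODE M21 with default parameters. The default library type of TopHat2 and Cufflinks is unstranded, although the kit marks strand. The deposited values were neither log-transformed nor quantile-normalised, although the methods name both. Here log2(FPKM + 1) was quantile-normalised over 34721 entries (34685 gene identifiers), and 14165 entries at 1 FPKM or more in at least 1 line were kept. A pseudocount of 1 understates changes of low genes. A log2 difference beyond 1 in size was counted. limma 3.58.1 in R 4.3.3 (lmFit, eBayes with trend, Benjamini-Hochberg over all kept entries) used the 2 lines of a mouse in place of replicates between the mice. Between the sites the 2 lines of a site, from different mice, took that place, and the pairing by mouse was left out. Each fit describes these lines, and its p-values measure the spread between the lines of a group. The fit and the fold count were run on simulated data in which all lines were independent and the changed genes were well above the filter. This does not cover lines that share an animal or genes at low levels.

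Depth was estimated from 9528 genes with 1 transcript longer than 800 bases, in which low FPKM values come in steps of 1 fragment. Between 59.1% and 65.6% of values lay within 0.1 of a whole number of steps (20% by chance), with a fitted offset to the length. The search ran from 20000000 to 45000000 fragments, a range set after a wider one had given a multiple of this depth for AOC3-LN. It gave 34000000, 29000000, 34000000 and 33000000 fragments for AOC3, AOC3-LN, AOC11 and AOC11-LN. Fragments printed for a gene assume its longest transcript and are upper estimates, and limits of 3 fragments cover counting error only.

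The members and lists were chosen with earlier results of these data known. All members are named. Of each list, up to 4 genes with the largest difference between the mice among those with both lines of a mouse apart, and up to 2 with the largest difference within a mouse, are named, others as background or as marked, and for each member spanning more than 1 log2 unit the 3 nearest protein-coding genes. Same-mouse lines share an animal, and their deviations correlated at 0.284, so fits with the mouse or the site as a block were tried, as were another pseudocount, other scalings and filters, and leaving out each line. Python 3.11.15 with pandas 2.3.3 and numpy 2.4.6 was used.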

Additional observations from a re-analysis of the deposited data

Results flagged for a closer look

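For 4 of the 5 members at 1 FPKM or more in a line, the lymph node line moved one way in 1 mouse and the opposite way in the other. The difference between the mice, taken as AOC11-LN minus AOC11 less AOC3-LN minus AOC3 on the log2 scale, was 2.79 for Il18, -1.10 for Il1rn, 0.65 for Il1r1 and -0.78 for Il1rap. These differences were not tested, since each side is 1 library, and 51.9% of all genes had opposite signs.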

How the results depend on the processing

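No member passed limma in either comparison under any alternative run. With a pseudocount of 0.1 FPKM the members past the fold threshold between the mice were 4 in place of 2. Of all 14165 genes, 2627 in place of 1573 were past it there. The members past it were 2 in place of 1 in AOC3-LN against AOC3 and 4 in place of 2 in AOC11-LN against AOC11. For these pairs all genes were not counted under that setting. Requiring both site-matched differences past the threshold left 1 between the mice, Il1a. With a filter of 5 FPKM, which removes 3 of the 5 members, 0 remained past it in AOC3-LN and 1 in AOC11-LN. All genes were not counted for these pairs with that filter, nor for the site-matched rule. With any 1 line left out, the log2 difference between the mice was 1.19 to 3.74 for Il1a and 1.02 to 1.61 for Il1rap. For Il18 it was past the threshold without AOC3 (-1.21) and without AOC11 (-1.52). Genes called by limma between the mice were 29, and 0 with no filter, 50 with a filter of 5 FPKM, 256 among protein-coding genes and 0 to 4 without a line. For the lymph node against the primary lines they were 2, and 0 with no filter, among protein-coding genes and without any 1 line. At an unadjusted p under 0.05 limma gave 2643 and 149 genes in the main fits and 4247 and 995 with no filter. With the site as replicate block limma called 31 genes between the mice, and with the mouse as replicate block 2 between the sites, none of them a member. Of the single-member values, 93 kept their side of the threshold and 7 passed it in an alternative alone. Among values not past it, the difference between the mice changed sign for Il18 (0.18 without AOC11-LN) and for Il1rn (-0.03 without AOC3-LN and -0.32 without AOC11-LN). Over the alternatives the limma adjusted p was 0.14 to 0.693 for Il1a and 0.0914 to 0.662 for Il1rap between the mice. The log2 difference between the mice ranged from 1.19 to 3.74 for Il1a and from 1.02 to 1.74 for Il1rap, and from -1.52 to 0.18 for Il18. Il1b, Il33, Il1r2 and Il1rl2 rest on at most about 9.7 fragments in a library.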
